A study of Mus musculus with 4 samples.

Results

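Dock10, App, Fras1, Pdgfrb, Nrros, Arhgap15, Tmem241, Ptges and Focad held the strongest intronic peaks of the m6A reader YTHDC1 in a RIP-seq experiment on mouse bone marrow cells. These 9 genes were chosen by the fold of their strongest YTHDC1 peak, that is, by how far the pileup of fragments at its summit exceeded the background nearby. They are 9 of 4300 protein-coding genes with a YTHDC1 peak, of 1699 genes whose strongest YTHDC1 peak was intronic, and of 5161 genes with a peak of any reader. Their YTHDC1 folds are therefore given as a description and were not tested. A total of 72 of the 19866 peaks of the 3 readers lay in the 9 genes.

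The series holds 4 libraries, 1 each for RNA bound by IGF2BP2, YTHDF2 or YTHDC1 and 1 input. All came from murine bone marrow cells described as lin- c-Kit+ and called LIC in the labels, grown in IMDM with 10% serum, IL3, IL6 and SCF. The labels used here do not name a strain, an age or the animals that gave the cells. Cells were crosslinked with UV light before precipitation, and the antibodies to the 3 proteins came from Proteintech. Each list therefore rests on 1 library, and values that differ between readers could not be checked in a second one. The number of sequenced fragments is unknown, since the lists give peaks and no library totals. The input library was not analysed here.

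N6-methyladenosine (m6A) is a methyl mark placed on adenosines of nascent RNA by the METTL3 and METTL14 complex, mostly within short motifs such as GGAC. YTHDC1 is the nuclear reader of the mark, with known roles in splicing, RNA export and the handling of chromatin-bound RNA. YTHDF2 is a cytoplasmic reader that promotes decay of marked mRNA, and IGF2BP2 is a reader that stabilises its targets. Introns are transcribed in the nucleus and are mostly removed before an mRNA is exported.

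The 9 genes act in several processes. Dock10 encodes a guanine nucleotide exchange factor that activates small GTPases, and Arhgap15 encodes a GTPase-activating protein that turns Rac off. App encodes the amyloid precursor protein, a membrane protein cut by secretases. Fras1 encodes an extracellular matrix protein of the Fraser complex. Pdgfrb encodes the receptor tyrosine kinase for platelet-derived growth factor B, used as a marker of pericytes and other stromal cells. Nrros encodes a membrane protein that holds latent TGF-beta on myeloid cells. Ptges encodes a prostaglandin E synthase, Focad encodes focadhesin, and Tmem241 encodes a membrane protein.

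The strongest YTHDC1 peaks of the 9 genes were tall and wide, as the choice by fold favours. Folds ran from 61.0 to 111 with a median of 64.8, against a median of 5.89 over all 3537 YTHDC1 peaks with an intronic summit in a protein-coding gene. Such intronic peaks made up 35.5% of the 9963 YTHDC1 peaks. Summit pileups ran from 62 to 158 (median 88, against 6), and widths from 215 to 666 bp (median 277 bp, against 120 bp). Pileup and width belong to the same peaks as the fold that chose the genes, so they are given without a test. In the plot of width against pileup, Fras1 was the widest of the 9 at 666 bp, with a pileup of 88, the median of the 9. Arhgap15 and Nrros had the highest pileups, 158 and 149, at widths of 277 and 236 bp.

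**Figure D1:**
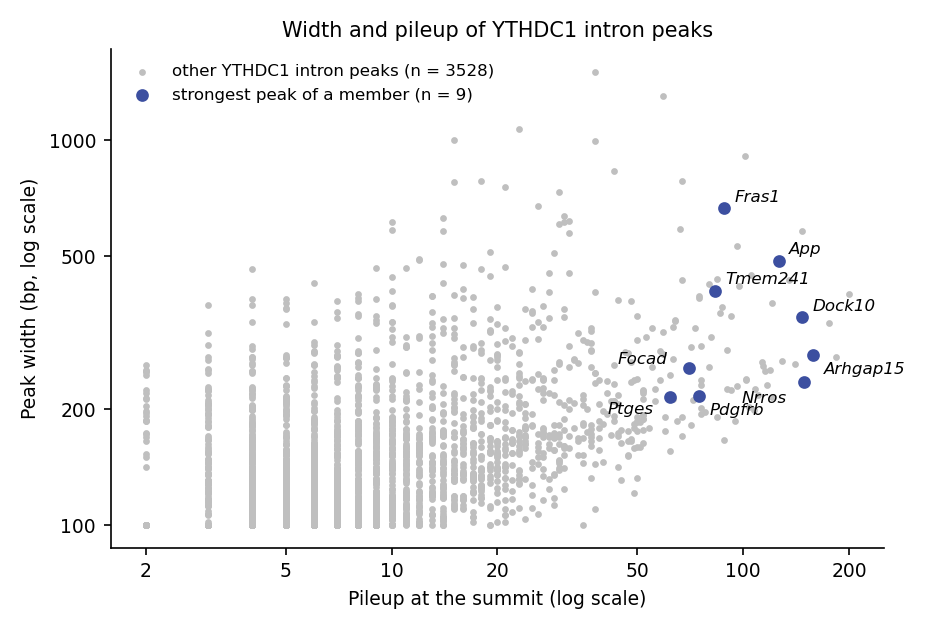
Width of each YTHDC1 intron peak (bp, log scale) against its summit pileup (log scale). Each grey point is 1 of 3528 other YTHDC1 intron peaks, and the 9 blue points are the strongest peaks of the named genes, with pileups of 62 to 158 and widths of 215 to 666 bp.

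A fold can be high because the pileup is high or because the local background is low, and the 9 peaks differed in this respect. The background implied by each pileup and fold, with the 1 that is added to both, was 1.48 at Arhgap15 and 1.32 at Nrros. It was 0.658 at App and 0.329 at both Dock10 and Tmem241. At Fras1, Pdgfrb and Focad it was 0.164, and at Ptges it was 0.0329. Arhgap15 thus had a pileup of 158 and a fold of 64.1, while Ptges had a pileup of 62 and a fold of 61.0. Ranked by pileup, Arhgap15 came first and Ptges last. Over all YTHDC1 intron peaks the median background was 0.0493, and 27.3% of them sat at the lowest value in the list, 0.0189. None of the 9 did, and among the 10% with the highest folds 4.52% did.

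Dock10 held the YTHDC1 peak with the highest fold of the whole list, 111, at chromosome 1, 80718001 to 80718348 (build GRCm38, as for all positions here). The gene (ENSMUSG00000038608.15) runs from 80501073 to 80758527 on the minus strand. The summit had a pileup of 147 and a −log10 q of 322. It lay in intron 1 of 55, which is 110.0 kb long and the longest of the coding transcript. The summit was 40204 bp from the nearest exon of that transcript and 8626 bp from the nearest exon of any transcript of Dock10.

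App (ENSMUSG00000022892.11; chromosome 16, 84949685 to 85173766, minus strand) came next with a fold of 76.6 and a pileup of 126 at 85161493 to 85161979. This peak also lay in intron 1, of 17, a stretch of 52.8 kb that is the longest intron of App. Its summit was 11889 bp from the nearest App exon and 6339 bp from the nearest exon of any gene. Fras1 (ENSMUSG00000034687.8; chromosome 5, 96373955 to 96784728, plus strand) had a fold of 76.4 at 96393066 to 96393731. That summit lay in intron 2 of 73, which spans 142 kb, and only 5.18% of the way into it.

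Nrros (ENSMUSG00000052384.14; chromosome 16, 32142785 to 32165594, minus strand) had a fold of 64.8 at 32156112 to 32156347, in intron 2 of 3. Its summit lay 1037 bp from an exon of another Nrros transcript, the shortest such distance of the 9, and 5989 bp from an exon of the main coding transcript. Arhgap15 (ENSMUSG00000049744.15; chromosome 2, 43748824 to 44395953, plus strand) had a fold of 64.1 at 43851859 to 43852135. The summit was in intron 4 of 13, 4810 bp from the nearest exon and 103172 bp from the start of the gene. Focad (ENSMUSG00000038368.16; chromosome 4, 88094629 to 88411011, plus strand) had a fold of 61.0 at 88352951 to 88353206. Its summit lay in intron 28 of 43, a short intron of 6.47 kb, and 258433 bp from the start of the gene.

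Ptges (ENSMUSG00000050737.13; chromosome 2, 30889471 to 30929863, minus strand) was a special case in the annotation. Its peak at 30911869 to 30912083 had a fold of 61.0 and lay in intron 1 of a non-coding transcript, Ptges-204. The start of the coding transcript Ptges-202 is 8681 bp downstream of the summit. For the enzyme's mRNA the peak is therefore upstream of the gene, and it is intronic only through the longer transcript.

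The remaining peaks were those of Pdgfrb and Tmem241, both on chromosome 18. Pdgfrb (ENSMUSG00000024620.11; 61045150 to 61085061, plus strand) had a fold of 65.3 at 61050640 to 61050855, in intron 2 of 23. This intron of 14.0 kb is the longest of Pdgfrb, and the summit was 4667 bp from an exon and 5617 bp from the start of the gene. Tmem241 (ENSMUSG00000049411.15; 11964450 to 12121537, minus strand) had a fold of 63.2 at 12005687 to 12006093. Its summit lay in intron 13 of 14, of 49.6 kb, and 12231 bp from the nearest exon, the longest such distance of the 9.

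Across the 9 genes the distance from summit to exon had a median of 5841 bp, and every summit was more than 1 kb from an exon of its gene. Over all YTHDC1 intron peaks the median was 1294 bp, and 54.2% lay beyond 1 kb. Among the 10% of these peaks with the highest folds the median was 2316 bp and 65.0% lay beyond 1 kb. The summit was in the longest intron of the transcript for 7 of the 9 genes, Arhgap15 and Focad being the exceptions. Among the 8 summits inside the main coding transcript this was 6 of 8, while 43.8% of YTHDC1 intron peaks (1456 of 3323) lay in the longest intron. The longest intron was chosen as a measure after the positions were seen. No other annotated gene overlapped any of the 9 summits. The lists give no strand, so RNA transcribed from the opposite strand cannot be told apart from the named gene. Reads that map to repeats or to several places were not checked at these peaks.

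IGF2BP2 had a peak at all 9 places, and YTHDF2 at 6. Both other readers were present at Dock10, Fras1, Pdgfrb, Nrros, Arhgap15 and Ptges, while App, Tmem241 and Focad had IGF2BP2 without YTHDF2. A place was counted as shared where the peaks overlapped by at least 1 bp. Over all YTHDC1 intron peaks, 19.3% (681 of 3537; exact 95% interval 18.0 to 20.6%) overlapped an IGF2BP2 peak, 8.31% a YTHDF2 peak and 6.47% both. Among the 10% with the highest folds (354 peaks) these shares were 53.4%, 22.9% and 21.8%. Intervals cover counting error only, and peaks of the same gene are not independent of each other.

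The share with a partner was higher in each higher class of YTHDC1 fold. For IGF2BP2 it was 11.6% at folds under 5, 17.1% at 5 to 10, 29.8% at 10 to 20 and 68.4% at 20 to 40. It was 97.4% (38 of 39) at folds of 40 and over, a class that contains the 9 genes. For YTHDF2 the shares in the same classes were 4.13%, 8.02%, 13.5%, 23.7% and 56.4%. Without the 9 peaks, 29 of the other 30 peaks of the top class had an IGF2BP2 partner and 16 of 30 had a YTHDF2 partner. The counts of 9 of 9 and 6 of 9 were thus close to those of other peaks with similar folds.

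**Figure D2:**
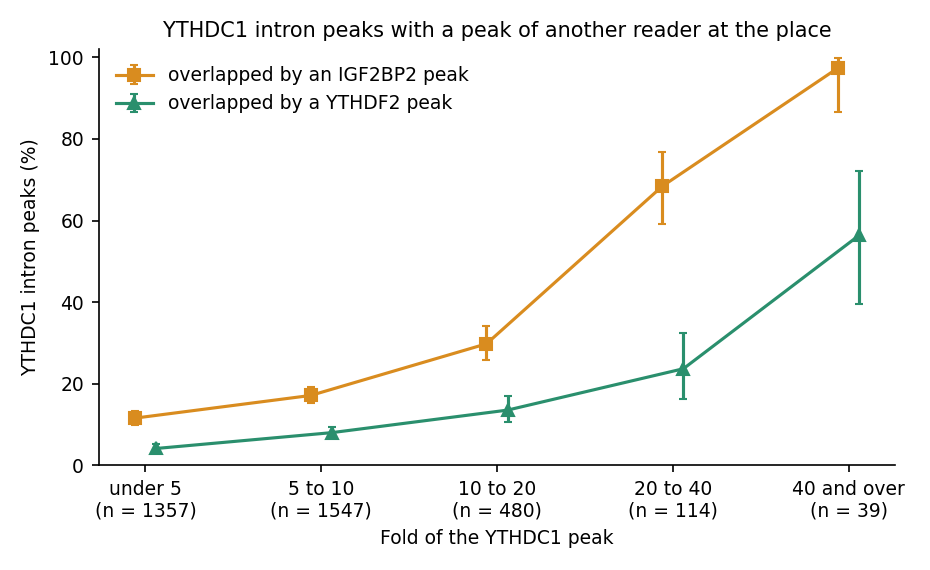
Share of YTHDC1 intron peaks (%) overlapped by an IGF2BP2 peak (squares) or a YTHDF2 peak (triangles), by class of YTHDC1 fold. Bars are exact 95% intervals for counting error. The share reached 97.4% for IGF2BP2 and 56.4% for YTHDF2 at folds of 40 and over, where all 9 named genes lie.

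The IGF2BP2 summit lay 3 to 27 bp from the YTHDC1 summit (median 7 bp). The median was 21 bp over all YTHDC1 intron peaks with an IGF2BP2 partner and 13 bp among the 10% with the highest folds. The YTHDF2 summit lay 0 to 316 bp away (median 11 bp), against medians of 17 bp and 14 bp. At Nrros the YTHDF2 and YTHDC1 summits were at the same base, and at Dock10 both other summits were 3 bp away. At Fras1 YTHDF2 had 2 peaks under the wide YTHDC1 peak, with folds of 9.28 and 6.70, and their summits were 316 bp and 16 bp from the YTHDC1 summit. At Ptges the YTHDF2 summit was 44 bp away. The IGF2BP2 peak at Fras1 was also the widest of its 9, at 634 bp.

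The 9 places ranked very differently in the IGF2BP2 list. Nrros (fold 50.9, pileup 112), Fras1 (49.0, pileup 54) and Dock10 (45.8, pileup 56) were ranks 20, 23 and 29 of 7069 IGF2BP2 peaks. Arhgap15 (26.4, pileup 48) and Ptges (25.4, pileup 25) were ranks 197 and 218. App (14.3, pileup 22), Tmem241 (13.7, pileup 16), Focad (11.6, pileup 12) and Pdgfrb (11.3, pileup 13) lay between ranks 744 and 1141. The IGF2BP2 folds of the 9 thus ran from 11.3 to 50.9.

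In the YTHDF2 list Nrros stood highest of the 6, with a fold of 23.1, a pileup of 40 and rank 34 of 2834. Dock10 had a fold of 12.6 and a pileup of 14. Fras1 had 9.28 and a pileup of 9, Arhgap15 6.61 and 12, Pdgfrb 6.38 and 6, and Ptges 5.89 and 5. With pileups of 5 to 14 at 5 of the 6 places, these YTHDF2 peaks rest on few fragments. At App, Tmem241 and Focad no YTHDF2 peak was called, and with unknown depth this does not show that the reader was absent there.

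**Figure D3:**
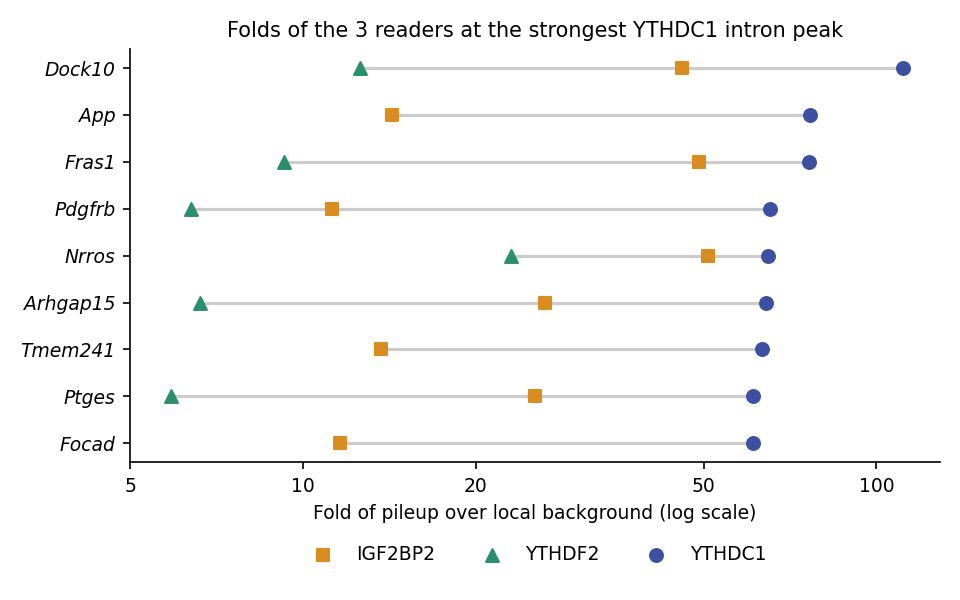
Fold of pileup over local background (log scale) at the strongest YTHDC1 intron peak of each gene, for IGF2BP2 (squares), YTHDF2 (triangles) and YTHDC1 (circles), 1 library each. YTHDC1 folds sit between 61.0 and 111, IGF2BP2 folds between 11.3 and 50.9, and no YTHDF2 peak was called at App, Tmem241 and Focad.

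Folds of different lists cannot be compared directly, so the pileups were put on a common scale. From a certain value upwards, called the step here, the implied backgrounds of each list were mostly whole multiples of that value. The step measured 0.122 in the IGF2BP2 list, 0.0968 in the YTHDF2 list and 0.164 in the YTHDC1 list. Of the backgrounds between 1 and 20 steps, 93.4%, 92.5% and 95.4% were whole within 1%. Backgrounds at or above the step belonged to 2078 of 7069 IGF2BP2, 1095 of 2834 YTHDF2 and 4439 of 9963 YTHDC1 peaks, and the others lay below it. Ptges was below it in all 3 lists and Fras1 in the YTHDF2 list. The YTHDC1 step was 1.35 times the IGF2BP2 step and 1.70 times the YTHDF2 step. Dividing each ratio of pileups by the ratio of the steps gives a scaled pileup ratio, which assumes that the step grows with the size of the library. The largest summit pileup was nearly the same in the 3 lists, at 199 for IGF2BP2 and 200 for both YTHDF2 and YTHDC1. Whether a shared upper limit on pileups draws ratios of high pileups together was not tested. In bulk precipitates, more RNA of a gene and a larger bound share of it cannot be told apart.

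On this scale 4 genes favoured YTHDC1 over IGF2BP2 most. The scaled ratio was 4.32 at Focad (exact 95% interval 2.33 to 8.76), 4.28 at Pdgfrb (2.35 to 8.40), 4.24 at App (2.68 to 7.01) and 3.84 at Tmem241 (2.23 to 7.04). It was 2.44 at Arhgap15 (1.76 to 3.44), 1.95 at Dock10 (1.42 to 2.70) and 1.84 at Ptges (1.14 to 3.05). At Fras1 it was 1.21 (0.851 to 1.73) and at Nrros 0.986 (0.766 to 1.27), so that the counting error there covered equal pileups of both readers. Peaks of the highest 10% with an IGF2BP2 partner (n = 189) had a median of 1.83 and a range from the 10th to the 90th percentile of 0.709 to 3.79. All coinciding intron peaks (n = 681) had a median of 0.889. The choice of high YTHDC1 folds raises these ratios by itself, so the values are a description. Intervals of pileup ratios cover counting error only, since reads amplified by PCR without molecular identifiers are not independent molecules.

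**Figure D4:**
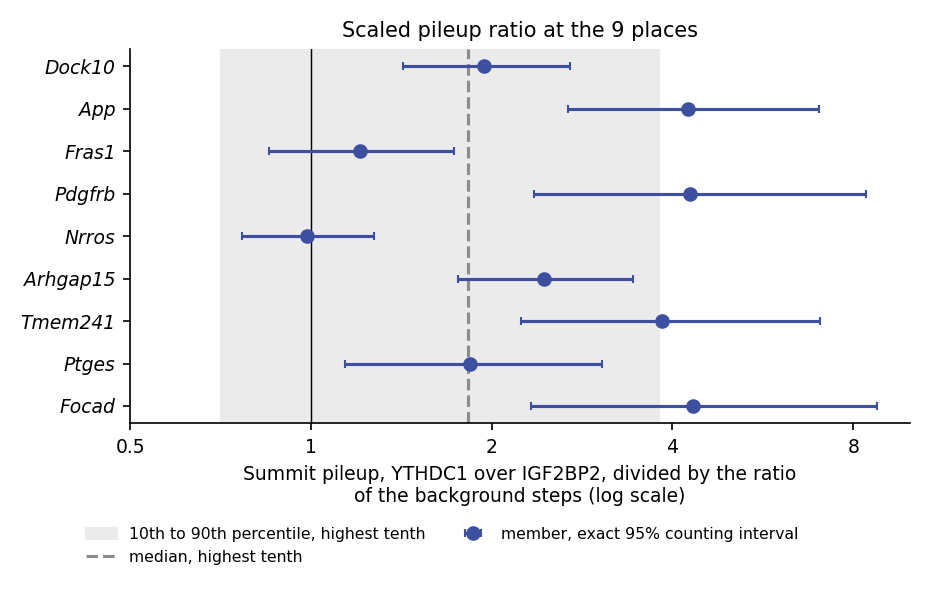
Scaled ratio of the YTHDC1 to the IGF2BP2 summit pileup (log scale) at the 9 places, with exact 95% counting intervals. The grey band is the 10th to 90th percentile (0.709 to 3.79) and the dashed line the median (1.83). Both are of the 10% of YTHDC1 intron peaks with the highest folds that have an IGF2BP2 partner. App, Pdgfrb, Tmem241 and Focad lie above the band, with intervals that reach into it. The highest 10% have a median fold of 18.8, against 64.8 for the 9, so the band is not matched by fold.

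Against YTHDF2, the scaled ratio was 7.75 at Arhgap15 (4.31 to 15.3), 7.36 at Pdgfrb (3.23 to 20.7) and 7.30 at Ptges (2.96 to 23.3). It was 6.18 at Dock10 (3.57 to 11.6) and 5.75 at Fras1 (2.90 to 13.0). The Fras1 value takes the stronger YTHDF2 peak, and with the one whose summit is 16 bp away (pileup 7) it was 7.40 (3.44 to 18.9). Nrros was lowest at 2.19 (1.54 to 3.19). Peaks of the highest 10% with a YTHDF2 partner (n = 81) had a median of 2.19. Their 10th to 90th percentiles ran from 0.925 to 6.33. Nrros was thus near their median. The values of Arhgap15, Pdgfrb and Ptges lay above their 90th percentile, with intervals that reach below it and YTHDF2 pileups of 12, 6 and 5. The highest 10% are not matched to the 9 by fold. The choice of high YTHDC1 folds raises these ratios too, so they are a description. Of the 6 places with peaks of all 3 readers, Nrros had the scaled pileups that were most alike. Its YTHDC1 pileup was 149, and an effect of an upper limit on pileups was not tested there.

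The 9 genes held 28 YTHDC1 peaks, 33 IGF2BP2 peaks and 11 YTHDF2 peaks in all, the strongest included. Of these, 24 of the 28 YTHDC1 summits were intronic, and 21 of these lay more than 1 kb from an exon. The 9 strongest peaks among them were intronic by the choice of genes. For IGF2BP2 22 of 33 summits were intronic and for YTHDF2 9 of 11, against 24.2% and 20.4% over all peaks of these lists and 35.5% for YTHDC1. These counts include the peaks at the 9 chosen intronic places. Fras1, Ptges and Focad had a single YTHDC1 peak each. Dock10 had 10 and Arhgap15 had 6, while the median over 2244 genes with a YTHDC1 intron peak was 2 and the maximum 34.

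The 6 genes with more than 1 YTHDC1 peak differed in how far the strongest stood above the next, a measure that uses the fold by which the genes were chosen. Its fold was 16.6 times the second at Pdgfrb (3.93), 7.65 times at Nrros (8.47) and 7.16 times at Tmem241 (8.83). It was 5.48 times the second at Arhgap15 (11.7), 5.25 times at App (14.6) and 3.08 times at Dock10 (36.2). Dock10 was the gene with a series of strong intronic peaks. Its intron 1 also held peaks with folds of 36.2 (80715057 to 80715364), 23.2 (80742891 to 80743046) and 7.85 (80705150 to 80705288). Farther along the gene, intron 19 had a peak with a fold of 26.8, intron 3 one of 15.8 and intron 53 one of 15.4.

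IGF2BP2, but not YTHDF2, also had peaks at some of the lesser intronic YTHDC1 peaks. Of 15 other YTHDC1 intron peaks in the 9 genes, 7 overlapped an IGF2BP2 peak, 5 of 8 in Dock10 and 2 of 5 in Arhgap15. None of the 15 overlapped a YTHDF2 peak. Over all YTHDC1 intron peaks these shares were 19.3% and 8.31%, and at folds of 10 to 20 they were 29.8% and 13.5%. Their folds ran from 3.93 to 36.2 with a median of 10.0, so they also belong to lower fold classes, and no comparison with the strongest peaks was made. A place in Arhgap15, at 44212953, had higher unscaled values for IGF2BP2 (fold 19.6, pileup 33) than for YTHDC1 (fold 11.0, pileup 19). Over all 681 coinciding intron peaks the median scaled ratio was 0.889, so a larger scaled IGF2BP2 pileup is common. This place was picked out after its values were seen.

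Clusters of YTHDC1 summits at most 5 kb apart were present in 3 of the 9 genes, against 30.8% of genes with a YTHDC1 intron peak (691 of 2244). Dock10 had 2 of them, spanning 2832 bp (folds 8.32 and 26.8) and 2879 bp (36.2 and 111). Nrros had 1 of 3388 bp (64.8 and 8.47) and Arhgap15 had 1 of 1342 bp (4.85 and 64.1). The share of the 9 is near the background. The strongest peak of the gene was part of 3 of the 4 clusters.

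**Figure D5:**
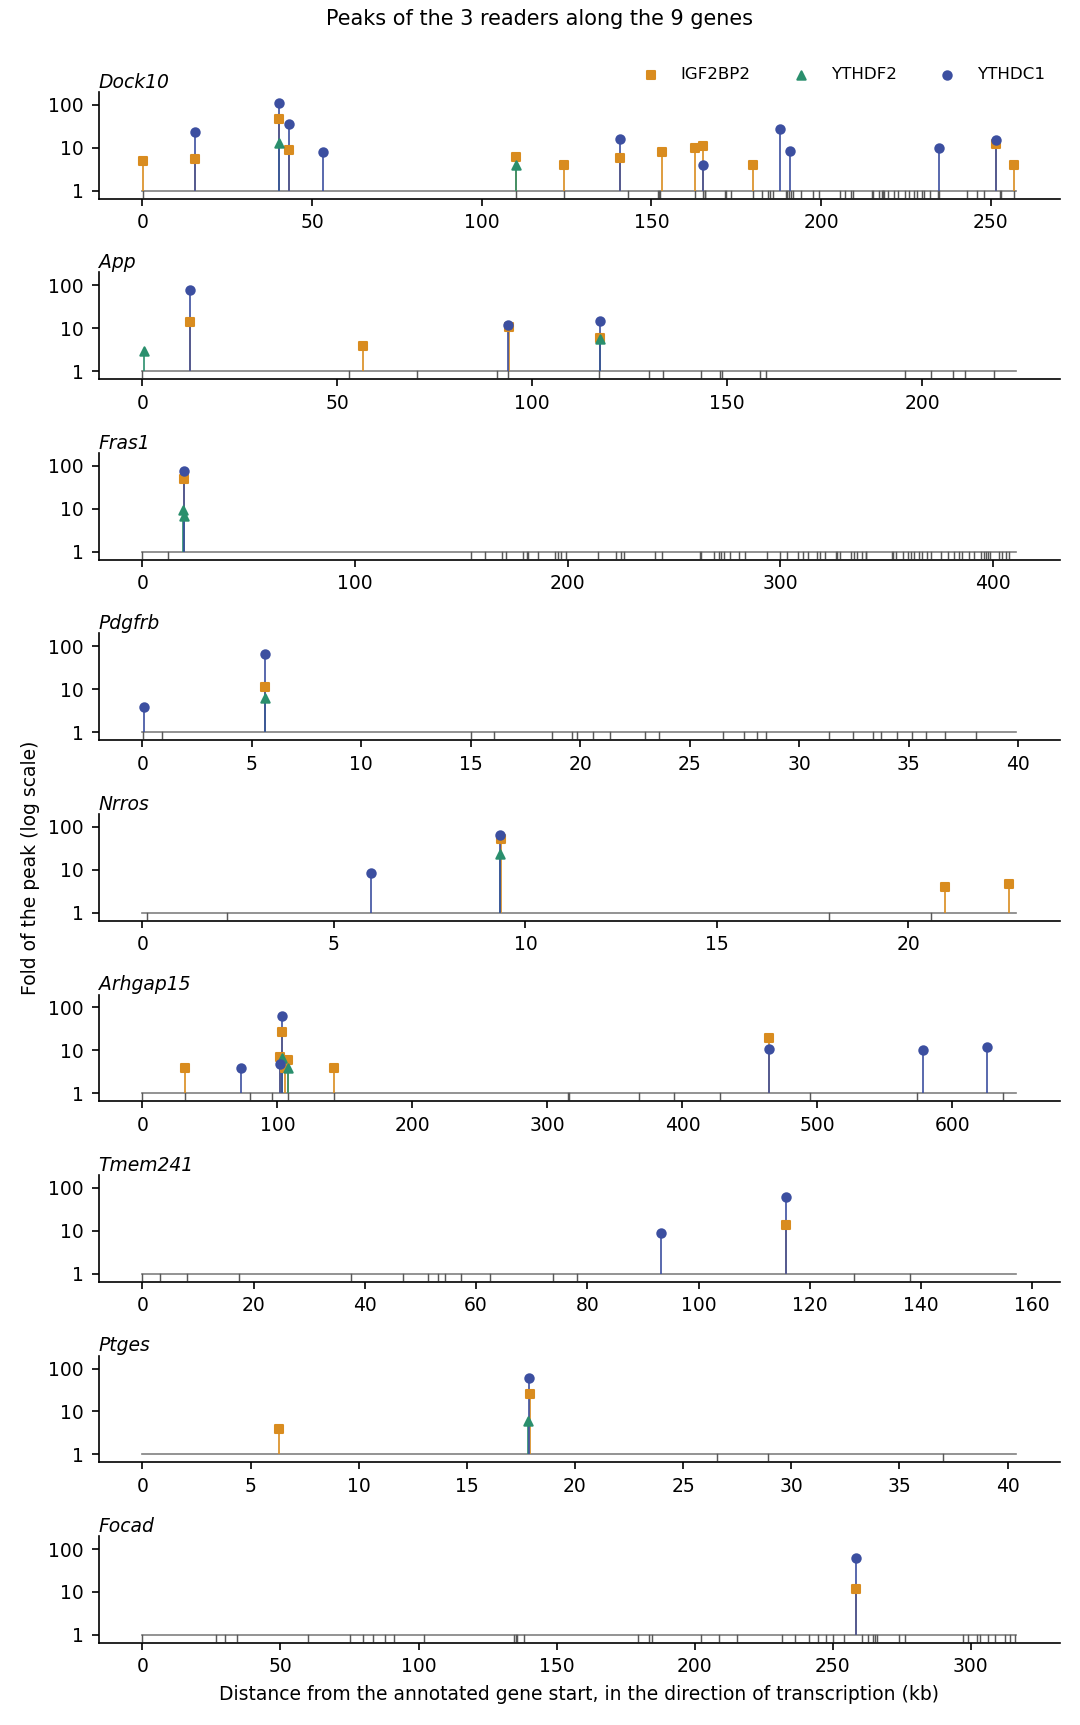
Peaks of the 3 readers along each of the 9 genes, as fold (log scale) against distance from the annotated gene start in the direction of transcription (kb). Ticks under each line are the exons of the main coding transcript. The strongest YTHDC1 peak is the only YTHDC1 peak in Fras1, Ptges and Focad and is 1 of 10 YTHDC1 peaks in Dock10.

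Exonic peaks were present in 5 of the 9 genes. Fras1, Tmem241, Ptges and Focad had none in any list, which is 4 of 9 genes, while 64.2% (1090 of 1699) of genes with an intronic strongest YTHDC1 peak had none. The only exonic peak of Pdgfrb was a YTHDC1 peak in its 5′ UTR with a fold of 3.93 and a pileup of 3. Nrros had 2 exonic peaks and Arhgap15 had 4, none of them YTHDC1, with folds of 3.89 to 5.82. These 7 genes had no exonic peak or exonic folds of at most 5.82. Their intronic YTHDC1 folds above 60 come from the choice of genes, so the contrast with the exonic folds is not a result. The folds of exonic peaks in other genes were not compared.

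App and Dock10 were the genes with an exonic YTHDC1 peak in coding sequence. In App, exon 6 of 18 had a peak in all 3 lists. YTHDC1 had a fold of 14.6 and a pileup of 52 there, IGF2BP2 a fold of 6.01 and a pileup of 16, and YTHDF2 a fold of 5.67 and a pileup of 14. This was the only exonic place of the 9 genes shared by the 3 readers. In exon 5 YTHDC1 had a fold of 12.0 and IGF2BP2 a fold of 10.7, with no YTHDF2 peak. In Dock10, exon 50 of 56 had a YTHDC1 fold of 9.81, with no peak of the other readers. IGF2BP2 instead had exonic peaks in exons 1, 2, 8 and 56 of Dock10, with folds of 3.94 to 9.86.

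The coding sequence around these 3 YTHDC1 summits is shown because it is where the deposited peaks can be read against mRNA sequence. Each line gives the summit base with 50 bases on either side in the spliced GENCODE M21 transcript, 5′ to 3′ on the gene's strand, with the motif GGAC in capitals. The App exon 6 window is chr16:85056385-85056485 on the minus strand. The other windows run across an exon junction.
App exon 6: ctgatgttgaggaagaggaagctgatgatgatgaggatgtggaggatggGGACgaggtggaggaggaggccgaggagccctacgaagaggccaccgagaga
App exon 5: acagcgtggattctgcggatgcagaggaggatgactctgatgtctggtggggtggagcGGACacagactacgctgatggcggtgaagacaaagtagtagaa
Dock10 exon 50: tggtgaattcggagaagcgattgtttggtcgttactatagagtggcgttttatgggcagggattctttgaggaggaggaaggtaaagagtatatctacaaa

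Each App window held GGAC once and the Dock10 window held none. Over all 2747 YTHDC1 summit windows of this length in coding sequence, 43.0% held GGAC on the gene's strand and 75.7% held the broader motif DRACH, which overlaps it. The App exon 5 window held DRACH 4 times, and the App exon 6 and Dock10 windows did not hold it. GC content was 58.4% in the App exon 6 window, 54.5% in the exon 5 window and 42.6% in the Dock10 window. A match describes the letters in these windows and does not show where a reader bound. The intronic summits were not read against sequence.

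Just outside the 9 genes by fold came Pfkfb3 (57.9), Frk (56.7), Vps13b (56.1), Smarca2 (55.8), Hdac9 (54.2), Gm45837 (54.2), Nfe2l1 (53.2), Rnf220 (52.9), Cdk6 (52.0) and Gbe1 (51.8). The weakest of the 9, Focad at 61.0, was thus little above the first gene left out. For 9 of these 10 genes the peak was intronic and had an IGF2BP2 partner, Nfe2l1 with a 3′ UTR peak being the exception. A YTHDF2 partner was present at 7 of 10, and widths ran from 193 to 400 bp. In these respects the 10 genes resembled the 9 that were chosen.

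For each gene, the gene with the most similar folds of the 3 readers was found among 1690 genes with an intronic strongest YTHDC1 peak. Likeness was the sum of absolute log2 differences over the 3 lists, with a fold of 1 where no peak overlapped. Focad was nearest to Snx4 (0.52), Tmem241 and App to Vps13b (0.58 and 0.79), and Pdgfrb to Smarca2 (0.68). Ptges and Arhgap15 were nearest to Gas7 (0.69 and 0.79) and Nrros to Cdk6 (0.81). Fras1 and Dock10 were nearest to Hdac9, at 1.29 and 1.93. Dock10 was the least matched of the 9, with folds above those of Hdac9 in every list. The distances use the YTHDC1 fold that chose the genes, and the 9 were not candidates. By that choice every candidate had a lower YTHDC1 fold than the 9. These distances describe 1 library per reader.

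Genes related to the 9 by family or pathway also had peaks. Of 61 listed relatives, 24 had a YTHDC1 peak, 16 of them in an intron, 12 had an IGF2BP2 peak and 5 a YTHDF2 peak. Over all 22028 protein-coding genes the shares with a YTHDC1, IGF2BP2 or YTHDF2 peak were 19.5%, 12.6% and 7.12%. Of the 22028 genes, 2244 had a YTHDC1 intron peak. Gene length and expression were not matched, so the counts and shares are set side by side without a test.

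Among the other DOCK exchange factors 4 of 10 had a YTHDC1 peak, led by intronic peaks of Dock1 (fold 14.6) and Dock2 (10.6). Of 7 small GTPases and relatives of Arhgap15, 5 had one, led by Arhgap9 (8.70, in CDS) and Cdc42 (7.55, in an intron). Of 11 genes of the App family and its proteases, 6 had one, led by the alpha-secretase gene Adam10 (10.9, 5′ UTR). Of the 3 Fraser complex partners only Grip1 had one (3.93). The relative with the highest fold was Tbxas1, the thromboxane synthase gene, with an intronic YTHDC1 fold of 39.3 and an IGF2BP2 fold of 16 at the same place.

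Of 8 PDGF ligands and class III receptor kinases, Pdgfra and Kit had a YTHDC1 peak. The Pdgfra peak was intronic and was shared by the 3 readers, with folds of 9.45 for YTHDC1, 8.91 for IGF2BP2 and 8.21 for YTHDF2. Kit had an intronic YTHDC1 fold of 4.91. Of 6 genes of TGF-beta and its partners, Tgfb1 (20.3, 5′ UTR) and Itgav (11.6, 5′ UTR) had one. Of 13 prostaglandin genes, 2 had one, Tbxas1 and the receptor gene Ptger1 (15.5, 3′ UTR). Of the 3 SKI complex genes, Skiv2l (14.6, CDS) and Ttc37 (5.89) had one.

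The labelled cell type was set against the peaks of marker genes. Of 7 stem and progenitor markers, Kit, Myb and Meis1 had a YTHDC1 peak, and Cd34, Flt3, Hoxa9 and Mpo had no peak of any reader. None of 5 lymphoid and none of 4 erythroid markers had a peak of any reader. The shares over all protein-coding genes were 19.5% for YTHDC1, 12.6% for IGF2BP2 and 7.12% for YTHDF2. Lists this short therefore cannot set cell types apart. Of 4 mature myeloid markers, Itgam and Csf1r had a peak of some reader, 1 of them of YTHDC1. Of 6 stromal and endothelial markers, Pdgfrb, Pdgfra, Col1a2 and Pecam1 had a YTHDC1 peak, 2 of them with IGF2BP2 and 2 with YTHDF2 peaks. Pdgfrb is among the 9 genes chosen for a strong YTHDC1 peak, so its place in this count was fixed by the choice. A peak needs both RNA and binding, so these counts do not give the level of any gene, and the part of stromal RNA in the Pdgfrb peak was not tested.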

How the data were processed

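RNA was precipitated with 1 of the 3 readers after UV crosslinking (254 nm, 120 mJ per cm2, 3 exposures). Libraries had 20 cycles of amplification and a size selection of 250 to 450 bp, per the labels' protocols. The submitters' processing notes name bcl2fastq 2.17, Trim Galore, HISAT2 and build GRCm38. The peak caller is not given in the sources used here. Each deposited list holds the authors' fold, a ratio of summit pileup to local background. The deposited −log10 p and −log10 q follow, with a deposited score of 10 times the latter. The summit pileup, a coverage signal, and the length are further columns, per the file headers. The authors called peaks on 1 library each, so all these values describe or rank peaks inside a list.

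Peaks were assigned to every GENCODE M21 gene under the summit, exons of any transcript before introns, with Python 3.11.15, pandas 2.3.3, numpy 2.4.6, scipy 1.17.1 and matplotlib 3.10.9. The main coding transcript is the one with the longest CDS. Background was computed as (pileup + 1) / fold − 1. Scripts were tested on simulated data. Intervals are exact binomial at 95%. The members, gene lists and measures were chosen with earlier results of these data known. Named outside the 9 genes were the next 10 by YTHDC1 fold at a −log10 q of at least 5, the up to 2 highest relatives per list (1 of which is not reported here) and the most similar gene. A motif count and a search for repeated 50-base words at intronic summits had been planned and were not run, because no genome sequence was used here. Alternatives were stricter peak filters, other overlaps, exon sets and cluster distances.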

Additional observations from a re-analysis of the deposited data

How the results depend on the processing

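The median distance from the strongest summit to an exon was 5841 bp with all transcripts of the gene and with exons of any gene, and 7375 bp with the main coding transcript alone, as fewer exons are then counted. Genes with a cluster of YTHDC1 summits numbered 3 at 5 kb, 1 at 2 kb (Arhgap15) and 4 at 10 kb. The counts of 9 and 6 places shared with IGF2BP2 and YTHDF2 did not change with summits within 100 bp, with overlap of most of the shorter peak or with a −log10 q of at least 5 for the other readers. Peaks in the 9 genes fell from 33 to 22 for IGF2BP2, 11 to 8 for YTHDF2 and 28 to 24 for YTHDC1 at a fold or a pileup of at least 5. Relatives with a YTHDC1 peak numbered 21 at a −log10 q of at least 5. Genes without an exonic peak numbered 5 at that minimum, an alternative chosen after seeing the data, in which the 5′ UTR peak of Pdgfrb dropped out. Other window sizes and strands for GGAC and other word lengths for repeats at intronic summits were not run, because no genome sequence of the build was used here. No paired analysis was possible because each reader has 1 library. Depth is unknown, and small pileups limit the YTHDF2 values most.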
